A study of Mus musculus with 12 samples.

Results

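A group of 9 homeobox genes that mark regions of the early brain was followed in NE-4C cells: Otx1, Otx2, Emx2, Gbx2, En1, En2, Lmx1a, Lmx1b and Dmbx1. They were chosen by name, and all 9 were found among the 57010 genes of the deposited table. NE-4C is a line of neural progenitor cells taken from the brain of an E9 mouse embryo and immortalized by loss of p53. Wildtype (WT) cells and Faf2 knockout (KO) cells, in which CRISPR/Cas9 removed exon 4 of Faf2, were profiled by mRNA-Seq. Both genotypes lack p53, and the KO cells are 1 line grown from a picked colony. The untreated condition (NO) received no retinoic acid and is listed at day 0. The RA condition received 1 µM all-trans retinoic acid for 24 h, then medium without it, and was collected 3 days post induction. No untreated group was collected at day 3. RA and time in culture thus cannot be told apart in any comparison of RA with NO, or in the interaction built from them. Each of the groups WT NO, WT RA, KO NO and KO RA held 3 libraries from separate passages, so that p-values measure the spread between passages of 1 line per genotype.

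Homeobox genes encode transcription factors that bind DNA through a homeodomain. In the neural tube, Otx genes mark the future forebrain and midbrain and Gbx2 the anterior hindbrain, and the border between them becomes the isthmus, a signalling centre that patterns the midbrain and cerebellum. En1 and En2 are expressed across that border, Emx2 marks the dorsal forebrain, Dmbx1 the early midbrain, and Lmx1a and Lmx1b act in the roof plate and in midbrain dopaminergic neurons, with Lmx1b also needed for serotonergic neurons. Retinoic acid is a posteriorizing signal in the neural plate. Otx2 is also expressed in pluripotent cells of the epiblast, before the brain forms.

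Levels are given as CPM, counts scaled to the size of the library, after TMM scaling between libraries. The deposited counts are already corrected for gene length, so levels can be compared between genes as well as between libraries. Library totals ran from 17370069 to 30738715 counts. A floor of 3 counts corresponded to 0.0838 to 0.297 CPM, and such floors cover counting error only. KO RA replicate 3 stood apart: its TMM factor was 0.394 against 0.872 to 1.28 elsewhere, and mitochondrial genes held 23.5% of its counts against 9.10% to 17.7%. WT NO replicate 3 also differed, with the Y-linked gene Kdm5d at 1.53 CPM against 6.43 to 14.0 CPM in the other 11 libraries. Ddx3y, also Y-linked, was at 0.267 to 2.78 CPM in all KO libraries and at 3.30 CPM in WT NO replicate 3. The other WT libraries held it at 16.6 to 27.5 CPM. Low Ddx3y thus went with the KO line and cannot be separated from genotype. The targeted gene, Faf2, was at 50.0, 38.8 and 36.0 CPM in WT NO, at 35.1, 37.9 and 49.1 CPM in WT RA, at 21.0, 21.7 and 25.4 CPM in KO NO and at 36.1, 34.3 and 18.7 CPM in KO RA. KO NO lay below WT NO (log2 fold change −0.87, adjusted p = 0.179, and −0.86, adjusted p = 0.0111, a call, without KO RA replicate 3), while KO RA and WT RA overlapped, and a count over the whole gene cannot tell transcripts with exon 4 from those without it.

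The labelled cell type was checked against marker genes. The neural progenitor markers Nes, Vim, Sox2 and Sox3 were present in all groups, at means of at least 28.2 CPM. Sox1, an early neural marker, had means of 0.521 CPM in WT NO and 0.220 CPM in KO NO, and Fabp7, a radial glia marker, 0.464 and 0.268 CPM. Of the pluripotency markers, Pou5f1 had means of 985 to 2415 CPM, Utf1 of 161 to 388 CPM and Tdgf1 of 507 to 586 CPM in the 4 groups, while Zfp42, a marker of naive pluripotency, was at or under the floor in every library. Otx2 was thus measured in cells with high levels of epiblast genes as well as with neural genes. In bulk RNA, fewer cells of a type and less RNA per cell cannot be told apart.

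Of the 9 genes, 8 passed the filter on low counts and were tested, and Lmx1a did not. With edgeR's quasi-likelihood test on all 12 libraries, 1 of the 8 had an adjusted p (Benjamini-Hochberg, over all genes tested) under 0.05, referred to as a call, in any comparison: Emx2, higher in KO RA than in KO NO. In that comparison 5.48% of the 16502 genes tested were called. No gene of the 8 was called in KO NO against WT NO, where 1.14% of all genes were, in KO RA against WT RA (1.24%), in WT RA against WT NO (0.406%) or in the interaction, which compares the response to RA between genotypes and in which 0% of genes were called. At an unadjusted p under 0.05, 2 of the 8 passed in KO NO against WT NO (12.2% of all genes), 1 in KO RA against WT RA (17.6%), 1 in WT RA against WT NO (12.5%), 5 in KO RA against KO NO (25.2%) and 3 in the interaction (8.62%). DESeq2 on all 12 libraries called 1, 1, 0, 3 and 1 of the 8 in these 5 comparisons, in the order just given, beside 4.64%, 7.20%, 4.53%, 14.7% and 1.53% of all genes. With limma-voom and sample weights the numbers were 2, 2, 0, 6 and 4 of the 8, beside 21.7%, 18.1%, 21.7%, 27.5% and 6.07%.

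KO RA replicate 3 bore on these counts more than any other library. When it was left out, 17327 genes were tested and the log2 fold changes (log2FC) of KO RA against KO NO had a median standard error (SE) of 0.30 in place of 0.43. The calls among the 8 genes were then Emx2, which was lower in KO NO (8.78% of all genes called), En1, higher in KO RA than in WT RA (9.85%), and none in WT RA against WT NO (10.8%). In KO RA against KO NO, 5 were called, with Emx2, En1, En2 and Lmx1b higher and Otx2 lower (16.0% of all genes), and in the interaction 1, En1 (1.34%). The median log2FC of the 8 genes in KO RA against KO NO was 1.17 with all libraries and 1.51 without KO RA replicate 3, beside 0.11 and −0.02 over all genes tested. In WT RA against WT NO the median of the 8 was −0.12, beside −0.01 over all genes.

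**Figure D1:**
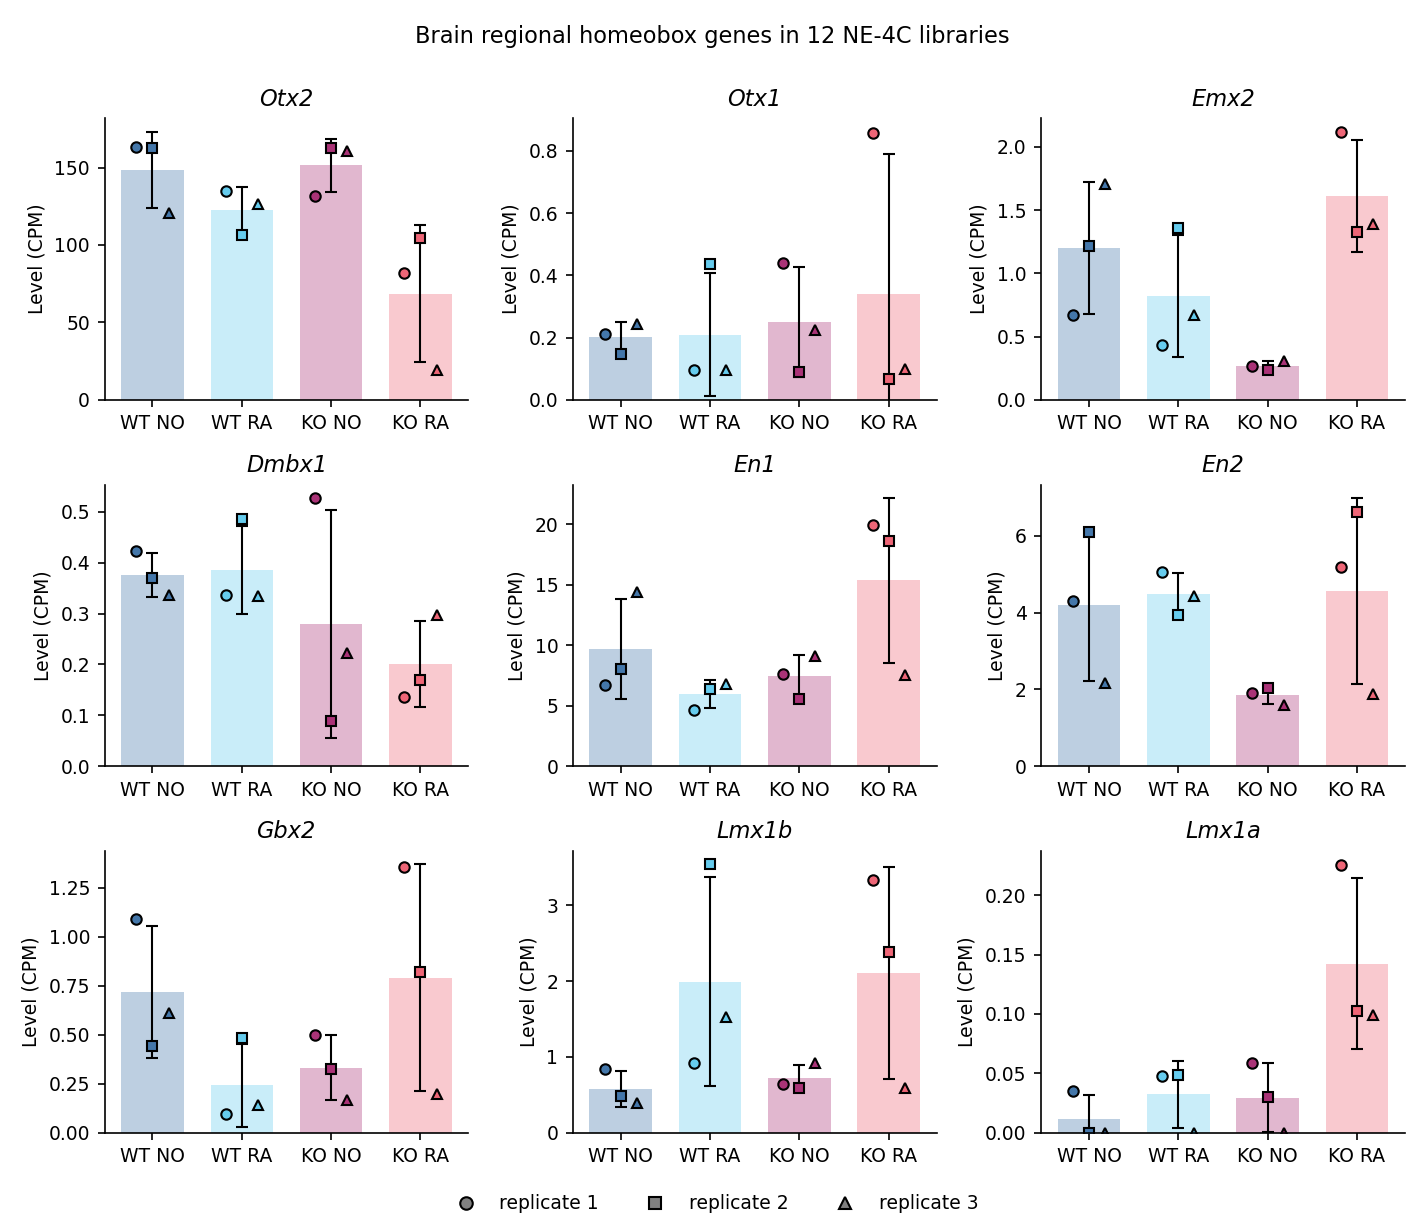
Level in CPM (vertical axes, linear, each with its own range) of the 9 genes in the 4 groups. Points are libraries, bars are means, and error bars are the SD of 3 libraries, cut off at 0. Emx2 is lowest in KO NO, at 0.237 to 0.307 CPM, and KO RA replicate 3 has the lowest Otx2 of all libraries, at 19.4 CPM.

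The order of the levels was led by the same genes in each group. Otx2 had the highest mean, with 149 ± 24.6 CPM in WT NO, 123 ± 14.8 CPM in WT RA, 152 ± 17.1 CPM in KO NO and 68.6 ± 44.0 CPM in KO RA (SD, n = 3). En1 had the second and En2 the third. The ranges of Otx2 and En1 overlapped only in KO RA, and those of En1 and En2 only in WT RA. Below them, Emx2, Gbx2, Lmx1b, Dmbx1 and Otx1 had means between 0.201 and 2.11 CPM, and most neighbours in that order overlapped. Lmx1a was last in all groups, at means of 0.0117 to 0.142 CPM.

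Otx2 (ENSMUSG00000021848, GRCm39 chromosome 14, 48894099 to 48911276, reverse strand) is required for forebrain and midbrain development. It was at 163, 163 and 120 CPM in WT NO and at 135, 106 and 127 CPM in WT RA. KO NO libraries held 132, 162 and 161 CPM, and KO RA libraries 82.0, 104 and 19.4 CPM. Every KO RA library thus lay below every KO NO library and every WT RA library, whereas WT NO and KO NO overlapped. On CPM without TMM factors KO RA replicate 2 was at 127.7 CPM, above the 108.0 to 117.8 CPM of WT RA, so that only the separation from KO NO remained. The log2FC of KO RA against KO NO was −1.14 (SE 0.46, adjusted p = 0.157), which is not a call. It became −0.71 (SE 0.18), a call, without KO RA replicate 3 (adjusted p = 0.0224). KO RA against WT RA had a log2FC of −0.84 (SE 0.46, adjusted p = 0.353). In WT RA against WT NO it was −0.28, with a 95% confidence interval from −1.27 to 0.72. Between the untreated genotypes it was 0.03, with an interval from −0.97 to 1.02. These intervals narrowed to −0.62 to 0.07 and −0.31 to 0.38 when KO RA replicate 3 was left out.

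Its paralogue Otx1 (ENSMUSG00000005917, chromosome 11, 21944764 to 21952897, reverse strand), which acts with Otx2 in the forebrain and midbrain, stood near the floor. Its levels ran from 0.148 to 0.244 CPM in WT NO, from 0.0955 to 0.436 CPM in WT RA, from 0.0889 to 0.439 CPM in KO NO and from 0.0681 to 0.858 CPM in KO RA. More than 3 counts were reached in 7 of 12 libraries, all groups overlapped, and the SEs of its log2FC were over 1. No difference was detectable at this depth. Otx2os1, a transcript on the opposite strand of Otx2, was tested too and lay between 0.0903 and 1.78 CPM. Its adjusted p was at least 0.768 in all 5 comparisons. Whether strand was used in counting is not given in the sources used here, so that reads of overlapping transcripts on opposite strands may not be separated.

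Emx2 (ENSMUSG00000043969, chromosome 19, 59446804 to 59453789, forward strand) is needed for growth and regional identity of the cerebral cortex and hippocampus. It was at 0.669, 1.22 and 1.71 CPM in WT NO and at 0.433, 1.36 and 0.669 CPM in WT RA. In KO NO it was at 0.264, 0.237 and 0.307 CPM, and in KO RA at 2.12, 1.33 and 1.39 CPM. The 3 KO NO libraries were the lowest of all 12, and KO RA overlapped both WT groups. From KO NO to KO RA, Emx2 rose by a log2FC of 2.56 (SE 0.56, 95% confidence interval 1.34 to 3.79, adjusted p = 0.0245), or 5.91-fold. The KO NO levels rest on 7.85 to 10.6 deposited counts per library, and KO RA replicate 3 on 13.8. Without TMM factors KO RA replicate 3 was at 0.546 CPM, still above the 0.260 to 0.368 CPM of KO NO on that scale. The call did not hold without any 1 of the 3 KO NO libraries (adjusted p = 0.113, 0.118 and 0.0900 without replicates 1, 2 and 3) or without KO RA replicate 1 (adjusted p = 0.0535).

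Between the untreated genotypes, KO NO and WT NO did not overlap for Emx2, but the log2FC of −2.14 (SE 0.55, 95% confidence interval −3.34 to −0.93) was not a call (adjusted p = 0.104). It was called by DESeq2 on all libraries (adjusted p = 0.0117) and by edgeR without KO RA replicate 3 (adjusted p = 0.0382). In WT cells RA was accompanied by a log2FC of −0.55 (SE 0.53, adjusted p = 0.757), and in KO RA against WT RA it was 0.98 (SE 0.53, adjusted p = 0.352). The difference between the RA responses of KO and WT cells was 3.11 on the log2 scale (SE 0.76, adjusted p = 0.298 with all libraries and 0.0708 without KO RA replicate 3). The antisense transcript Emx2os, which overlaps the start of Emx2, was at or under the floor in all libraries but WT RA replicate 2, where it was at 0.436 CPM.

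The 250 bases before the start of Emx2 are shown because Emx2 is the 1 gene of the group called with all libraries. They lie at chr19:59446554-59446803 on the forward strand of GRCm39, overlap exons of Emx2os, and run 5′ to 3′ up to the base before the start of the canonical transcript.
Emx2: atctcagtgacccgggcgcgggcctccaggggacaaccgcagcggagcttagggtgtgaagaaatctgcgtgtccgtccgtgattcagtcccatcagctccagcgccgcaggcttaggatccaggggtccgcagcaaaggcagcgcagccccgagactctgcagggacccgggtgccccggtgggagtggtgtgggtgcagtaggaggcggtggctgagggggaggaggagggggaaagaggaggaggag
No letters are in capitals here, since this window holds no TAATCC motif, no TAATTA motif and no CCAAT motif on either strand. It is 66.8% G and C, against a median of 53.2% over the same window of 21770 protein-coding genes. TAATCC, the core that Otx proteins bind, is in 7.00% of these windows, TAATTA, a common homeodomain core, in 5.18%, and CCAAT in 36.5%. AGGTCA, a half-site of retinoic acid receptors, is in 13.1% of the windows and in none of the 9 genes' windows.

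The En genes encode the engrailed proteins, which maintain the midbrain and cerebellum. En1 (ENSMUSG00000058665, chromosome 1, 120530108 to 120535721, forward strand) was at 6.69, 8.02 and 14.4 CPM in WT NO and at 4.66, 6.35 and 6.83 CPM in WT RA. Among KO cells it was at 7.65, 5.57 and 9.07 CPM in KO NO and at 19.9, 18.6 and 7.53 CPM in KO RA. KO RA replicates 1 and 2 held the highest levels of all libraries, the third lay within the range of KO NO, and KO RA did not overlap WT RA. Both places of the third depended on its TMM factor, since without TMM factors it was at 2.96 CPM, below the 4.06 to 6.45 CPM of WT RA and the 6.12 to 10.9 CPM of KO NO. The log2FC of KO RA against WT RA was 1.37 (SE 0.40, 95% confidence interval 0.49 to 2.26, adjusted p = 0.126). Without KO RA replicate 3 it was 1.69 (SE 0.32) and was called (adjusted p = 0.0117). Against KO NO, KO RA had a log2FC of 1.05 (SE 0.40, adjusted p = 0.142), which without KO RA replicate 3 was 1.36 (SE 0.32, adjusted p = 0.0163, called).

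The log2FC of En1 after RA in WT cells was −0.71 (SE 0.40, adjusted p = 0.524), and WT NO replicate 3 was the highest of the 6 libraries. Without that library the value was −0.30. The interaction was 1.76 for En1 (SE 0.56, adjusted p = 0.430), and 2.07 (SE 0.43, adjusted p = 0.0484) without KO RA replicate 3, the only member called in the interaction by that fit. Between the untreated genotypes En1 had a log2FC of −0.38, with a 95% confidence interval from −1.25 to 0.48.

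En2 (ENSMUSG00000039095, chromosome 5, 28370689 to 28377195, forward strand) was at 4.30, 6.10 and 2.17 CPM in WT NO and at 5.05, 3.93 and 4.44 CPM in WT RA. In KO NO it was at 1.90, 2.04 and 1.59 CPM, and in KO RA at 5.19, 6.61 and 1.88 CPM. Every KO NO library lay below every WT library, and KO RA replicate 3 lay within KO NO. Without TMM factors the first still held, while KO RA replicate 3 was at 0.740 CPM, below the 1.91 to 2.25 CPM of KO NO. KO NO against WT NO had a log2FC of −1.18 (SE 0.46, adjusted p = 0.315, and 0.0532 without KO RA replicate 3). KO RA against KO NO had 1.32 (SE 0.46, adjusted p = 0.120). Leaving out KO RA replicate 3 gave 1.67 (SE 0.36, adjusted p = 0.0118, called). RA in WT cells was accompanied by a log2FC of 0.10 for En2 (95% confidence interval −0.90 to 1.09), whose sign turned with CPM without TMM factors, where the means were 4.53 CPM in WT NO and 4.12 CPM in WT RA.

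The 250 bases before the start of En1 are shown because En1 was called higher in KO RA than in both WT RA and KO NO without KO RA replicate 3. They lie at chr1:120529858-120530107 on the forward strand of GRCm39 and overlap an exon of a long non-coding RNA (Gm69561). Capitals mark TAATCC or its reverse complement GGATTA, and CCAAT or its reverse complement ATTGG.
En1: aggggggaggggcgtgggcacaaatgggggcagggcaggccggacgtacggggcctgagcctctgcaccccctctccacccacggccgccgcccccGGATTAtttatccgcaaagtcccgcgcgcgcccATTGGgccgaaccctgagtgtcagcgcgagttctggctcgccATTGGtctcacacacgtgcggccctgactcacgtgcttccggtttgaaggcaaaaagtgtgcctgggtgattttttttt
The TAATCC match begins 154 bases before the start, and the CCAAT matches 121 and 79 bases before it. CCAAT was in the windows of 6 of the 9 genes. The window of En1 was 64.0% G and C. These are matches of letters in a window of 250 bases, and binding was not measured.

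Gbx2 (ENSMUSG00000034486, chromosome 1, 89855678 to 89858920, reverse strand), which sets the hindbrain side of the border with Otx2, was at 1.09, 0.444 and 0.610 CPM in WT NO and at 0.0961, 0.485 and 0.143 CPM in WT RA. KO NO libraries held 0.498, 0.326 and 0.168 CPM, and KO RA libraries 1.35, 0.818 and 0.198 CPM. All pairs of groups overlapped, and KO RA replicate 3 was again the lowest of its group. The largest difference was KO RA against WT RA, with a log2FC of 1.73 (SE 0.83, adjusted p = 0.306). WT RA against WT NO gave −1.55 (SE 0.83, adjusted p = 0.491), and the interaction was 2.83 (95% confidence interval 0.31 to 5.35, adjusted p = 0.531). Gbx2 was not called by edgeR with or without KO RA replicate 3, while limma-voom with sample weights called it higher in KO RA than in either WT RA or KO NO and in the interaction.

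Lmx1b (ENSMUSG00000038765, chromosome 2, 33450977 to 33531093, reverse strand) was at 0.845, 0.481 and 0.397 CPM in WT NO and at 0.913, 3.54 and 1.53 CPM in WT RA. In KO NO it was at 0.644, 0.592 and 0.921 CPM, and in KO RA at 3.34, 2.38 and 0.595 CPM. Within each genotype the mean was higher after RA, without overlap in WT cells (but with overlap on CPM without TMM factors) and with overlap in KO cells. The log2FC were 1.79 in WT cells (SE 0.67, adjusted p = 0.290) and 1.56 in KO cells (SE 0.66, adjusted p = 0.172). Without KO RA replicate 3 they were 1.80 (adjusted p = 0.0546) and 1.97 (adjusted p = 0.0370), of which the second was a call. The interaction was −0.23, with a 95% confidence interval from −2.23 to 1.78. Lmx1a (ENSMUSG00000026686, chromosome 1, 167516677 to 167676310, forward strand), its paralogue, had more than 3 counts in 1 of 12 libraries. That library was KO RA replicate 1, at 0.226 CPM, while KO RA replicates 2 and 3, at 0.102 and 0.0991 CPM, lay at and under their own floors. The other 9 libraries held at most 0.0586 CPM, and no fold change is given because those groups lay at the floor.

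Dmbx1 (ENSMUSG00000028707, chromosome 4, 115772316 to 115797125, reverse strand) was at 0.423, 0.370 and 0.336 CPM in WT NO and at 0.337, 0.485 and 0.334 CPM in WT RA. In KO NO it was at 0.527, 0.0889 and 0.223 CPM, and in KO RA at 0.135, 0.170 and 0.297 CPM. All KO RA libraries lay below all WT RA libraries, with a log2FC of −0.98 (SE 0.74, adjusted p = 0.515). The KO RA levels of Dmbx1 rest on 3.41, 4.50 and 2.51 deposited counts, near the floor of 3. The 95% confidence intervals of its differences all included 0, and 9 of 12 libraries had more than 3 counts. All 9 genes are protein-coding. Genes on the opposite strand overlap 6 of them (Otx1, Otx2, Emx2, Gbx2, En2 and Lmx1b).

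**Figure D2:**
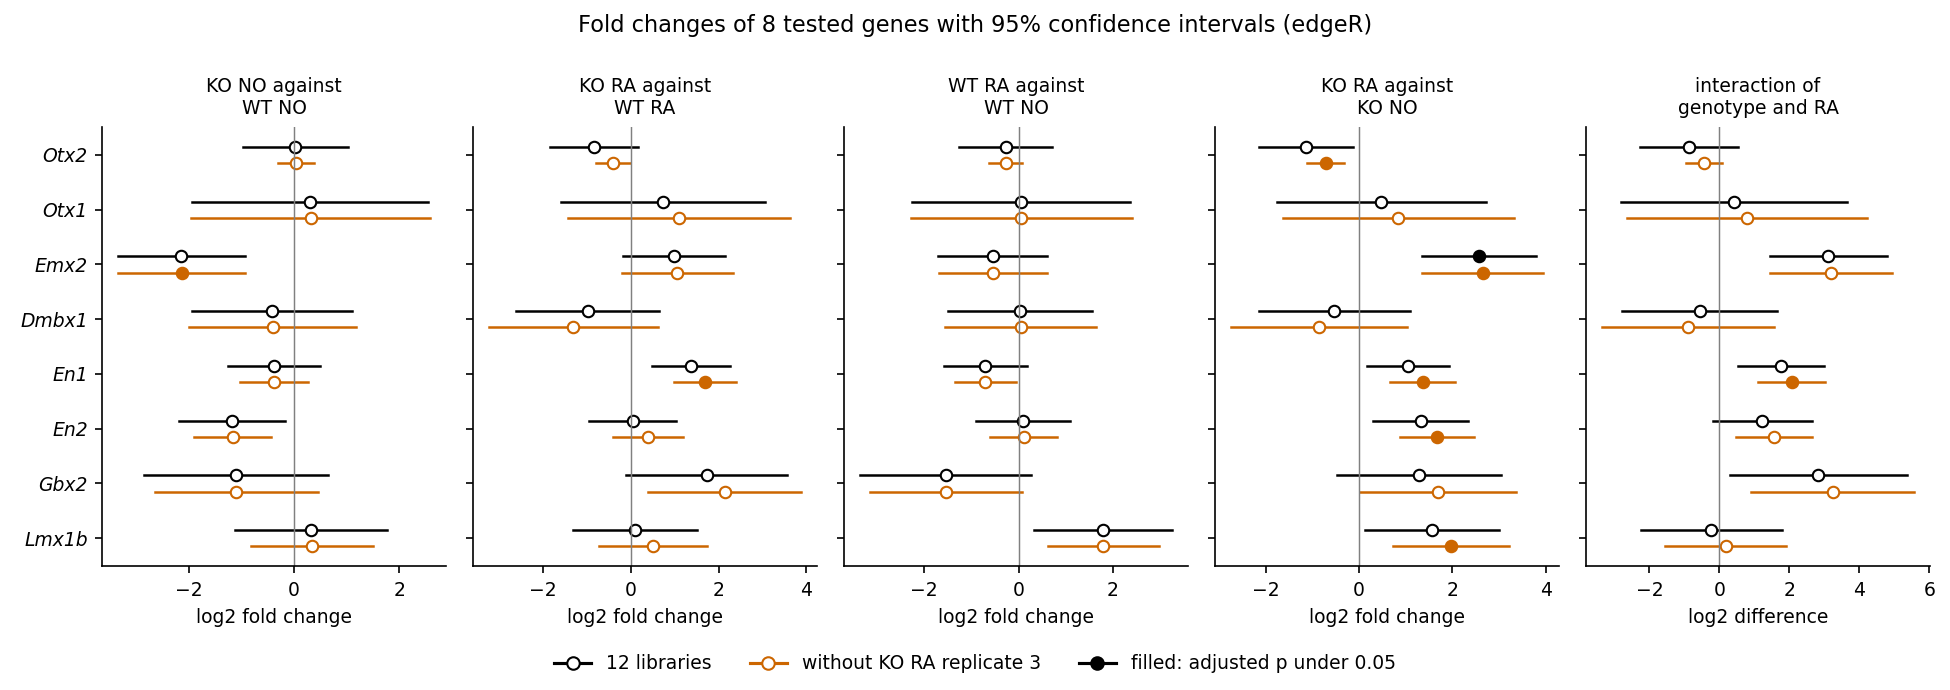
Log2 fold changes (horizontal axes) of the 8 tested genes in the 5 comparisons, with 95% confidence intervals, from edgeR on 12 libraries (black) and without KO RA replicate 3 (orange). Filled points passed an adjusted p under 0.05. With 12 libraries Emx2 in KO RA against KO NO (2.56) is the only filled point. Without KO RA replicate 3, 8 points are filled, 5 of them in that comparison.

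In the count of groups that did not overlap, KO NO lay below WT NO for Emx2 and En2 (2 of 8, beside 30.7% of all genes), Lmx1b was higher in WT RA than in WT NO (1 of 8, beside 29.1%), En1 was higher and Otx2 and Dmbx1 lower in KO RA than in WT RA (3 of 8, beside 20.9%), and Emx2 was higher and Otx2 lower in KO RA than in KO NO (2 of 8, beside 30.2%). On CPM without TMM factors, a comparison added after the values were seen, the counts were 2 of 8 (Emx2 and En2 lower, beside 29.8% of all genes), 2 (En1 and Otx2 lower, beside 33.3%), 1 (Dmbx1 lower, beside 13.9%) and 2 (Emx2 higher and Otx2 lower, beside 24.6%) in the same order. The genes that separated thus depended on the scaling in WT RA against WT NO and in KO RA against WT RA. Dmbx1 lay near the floor in KO RA.

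Because the scaling of KO RA replicate 3 was unusual, the genes were also set against Otx2 within each library, a measure that no scaling between libraries changes and that was added after the values were seen. En1 stood at 4.10% to 11.9% of Otx2 in WT NO, at 3.43% to 5.99% in WT RA, at 3.43% to 5.80% in KO NO and at 17.9% to 38.6% in KO RA. En2 stood at 1.79% to 3.75%, 3.52% to 3.73%, 0.997% to 1.45% and 6.34% to 9.52% in the same order of groups. For both En genes and for Gbx2 (0.792% to 1.64% in KO RA, at most 0.663% elsewhere), every KO RA library lay above the other 9. This includes KO RA replicate 3, which had the highest En1 and En2 share of Otx2 and the lowest level of Otx2. For Gbx2 it is weakly measured, with 2.34 deposited counts in KO RA replicate 3 and 1.77 in WT RA replicate 1, both under the floor of 3. Emx2 stood at 0.143% to 0.193% of Otx2 in KO NO and at 0.329% or more in every other library.

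These ratios are to be read against those of other genes, since Otx2 itself was low in KO RA. Of 14407 genes, 29.2% had a ratio to Otx2 that was above all other libraries in KO RA, beside 3 of 7 here (En1, En2 and Gbx2). A ratio below all other libraries in KO NO was found for 9.67% of genes, beside 2 of 7 (Emx2 and En2). Against En1, Emx2 stood at 3.26% to 4.18% in KO NO and at 7.19% to 21.1% in the other 9 libraries. Its levels in KO NO were already the lowest of all libraries, so that this ratio is not separate evidence. The share of all genes with such a ratio to En1 was not counted. En1 as a percent of En2 did not set KO NO apart, at 274% to 567% against 132% to 666% in WT NO. It was 92.2% to 163% in WT RA and 281% to 406% in KO RA.

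**Figure D3:**
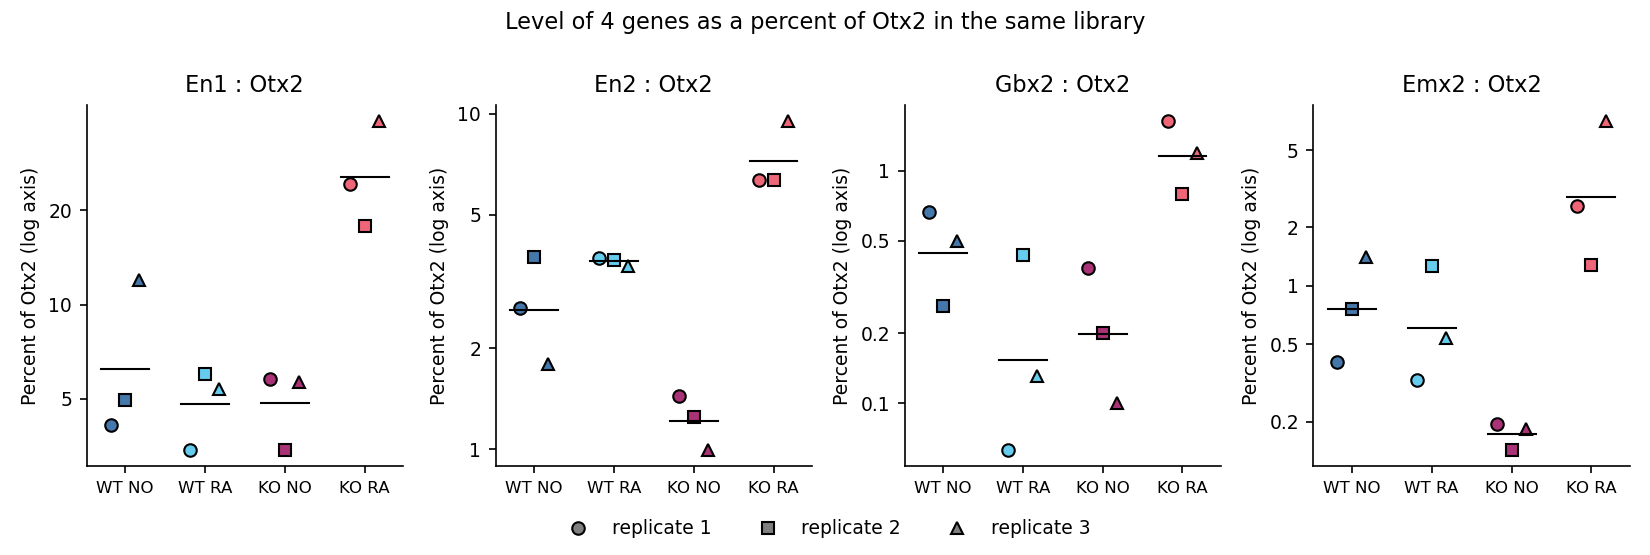
Deposited level of En1, En2, Gbx2 and Emx2 as a percent of Otx2 in the same library (vertical axes, log scale). Points are libraries and lines are geometric means of 3. In KO RA all 3 libraries lie above the other 9 for En1, En2 and Gbx2, and in KO NO all 3 lie below the other 9 for En2 and Emx2. The Gbx2 point of KO RA replicate 3 rests on 2.34 deposited counts.

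Lists of other regional genes place these values in the response to RA, with genes called by edgeR on 12 libraries. In that fit 0.406% of all genes were called in WT RA against WT NO and 5.48% in KO RA against KO NO. Without KO RA replicate 3 these shares were 10.8% and 16.0%. Counts in WT and KO cells thus stand on different baselines. Of 12 tested genes of hindbrain identity, 2 were called higher in WT RA than in WT NO (Hoxb2 and Hoxb4) and 5 higher in KO RA than in KO NO, led by Hoxb2, Irx3 and Hoxb3. Hox genes give hindbrain segments their identity. Hoxb2 was at 0.0610 to 0.176 CPM in WT NO and at 3.77 to 7.76 CPM in WT RA (adjusted p = 0.0340), and at 0, 0.178 and 0.0279 CPM in KO NO against 1.70 to 4.92 CPM in KO RA (adjusted p = 0.00703). The median log2FC of the hindbrain list was 1.79 in WT cells and 1.93 in KO cells, beside −0.01 and 0.11 over all genes. Without KO RA replicate 3, 6 genes of this list were called in WT cells and 6 in KO cells, all higher.

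Of 13 tested genes of midbrain and isthmus patterning, none was called in WT RA against WT NO and 3 were called higher in KO RA than in KO NO. These were Wnt1, the midbrain signal that maintains En expression, the dorsal neural tube gene Pax3, and Irx2. Wnt1 was listed at 0 in all 6 untreated libraries, and lay at 0.385, 1.60 and 0.430 CPM in WT RA and at 0.813, 0.511 and 0.496 CPM in KO RA. Both RA groups thus held it above the floor. Without KO RA replicate 3, 4 genes of this list were called in WT cells and 5 in KO cells, all higher, beside 10.8% and 16.0% of all genes. Fgf8, the isthmus signal, had means of 28.8 to 60.4 CPM and was not called.

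Of the forebrain identity genes, 6 of 18 passed the filter. Their median log2FC after RA was −0.12 in WT cells, where 3 of the 6 were above 0. In KO cells it was 2.01, with 4 of the 6 above 0. Over all genes the medians were −0.01 and 0.11. Irx1 was called higher after RA in both genotypes (log2FC 2.56 in WT cells, adjusted p = 0.0403, and 4.57 in KO cells, adjusted p = 0.000970), and Barhl2 in KO cells (3.06, adjusted p = 0.0474). Among 12 tested roof plate, dopaminergic and serotonergic genes that act with Lmx1a or Lmx1b, 3 were called higher in KO RA than in KO NO, among them Neurog2 and Ddc, and 1 lower, Msx1, a roof plate gene (log2FC −2.65, SE 0.48, adjusted p = 0.0119). None of this list was called in WT cells. Of all genes, 5.48% were called in KO RA against KO NO and 0.406% in WT RA against WT NO. Ddc, which encodes the decarboxylase of dopamine and serotonin synthesis, was at 23.6, 40.4 and 266 CPM in KO RA, so that KO RA replicate 3 set its mean. All 4 calls were also made without that library, and Msx1 was then called lower in WT RA than in WT NO too.

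Of the genes of the RA response, 1 was called after treatment in WT cells and 7 in KO cells, beside 0.406% and 5.48% of all genes. Cyp26a1, the enzyme that degrades RA, was called higher in WT RA than in WT NO (log2FC 2.49, SE 0.39, adjusted p = 0.0340), in KO RA than in KO NO (3.72, SE 0.39, adjusted p = 0.000620) and in KO RA than in WT RA (2.64, SE 0.37, adjusted p = 0.00970). Of the 11 tested genes of this list, 6 were called higher and 1 lower in KO RA against KO NO. The lower one was Dhrs3, a retinaldehyde reductase (−1.43, SE 0.31, adjusted p = 0.0256). Without KO RA replicate 3, 5 genes of this list were called in WT RA against WT NO, all higher (10.8% of all genes called). In KO RA against KO NO that fit called 5 higher and 1 lower (16.0% of all genes called). No gene of these 5 lists was called by edgeR with 12 libraries in KO NO against WT NO or in the interaction, and Cyp26a1 was the only one in KO RA against WT RA. Without KO RA replicate 3 these 3 comparisons held 8, 2 and 5 calls among the 54 tested genes of the 5 lists, or 14.8%, 3.7% and 9.26%, beside 8.78%, 1.34% and 9.85% of all genes.

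**Figure D4:**
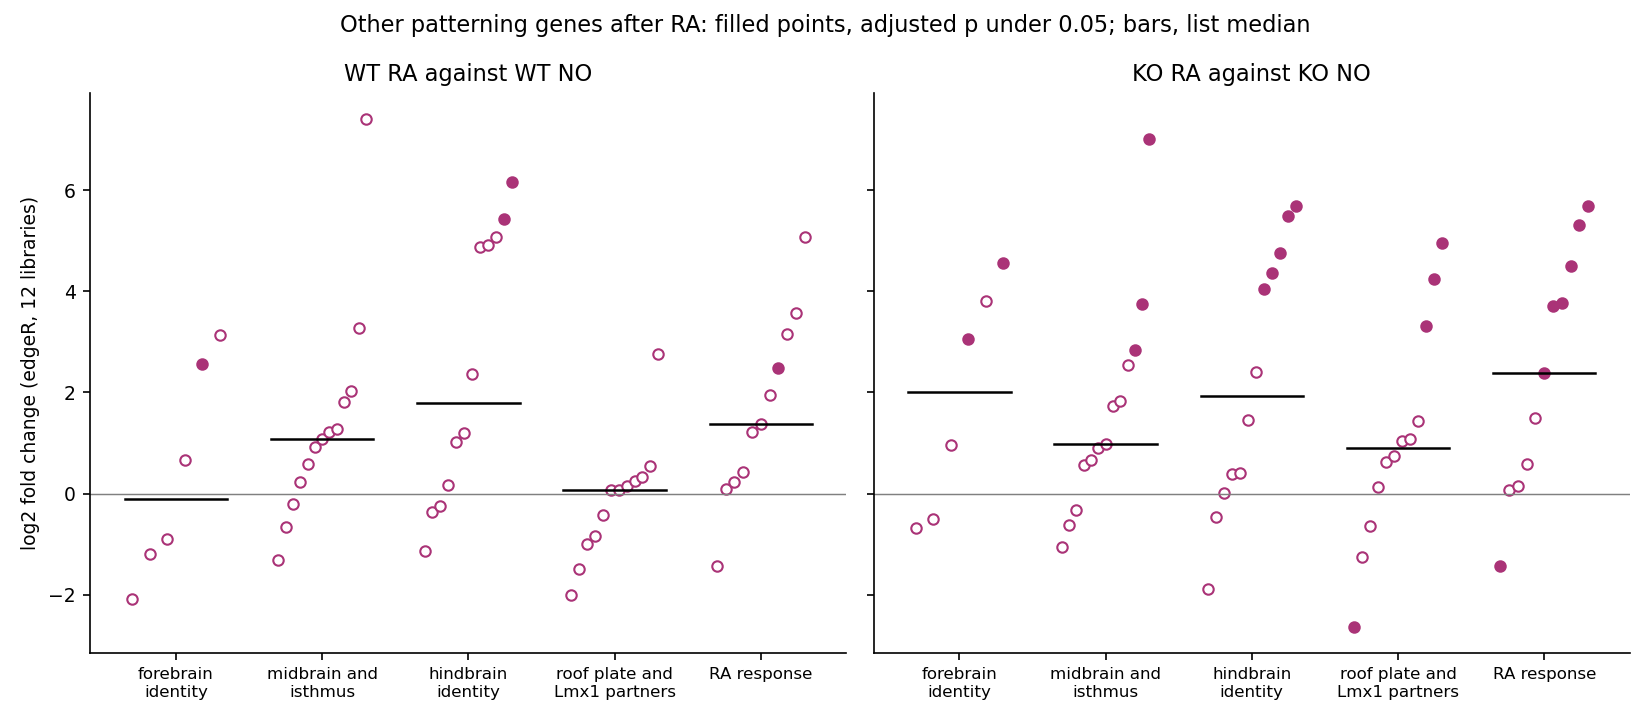
Log2 fold changes (vertical axis) of the tested genes of 5 lists in WT RA against WT NO (left) and KO RA against KO NO (right), edgeR on 12 libraries. Filled points passed an adjusted p under 0.05, and bars are list medians. Hindbrain genes have a median of 1.79 in WT cells and 1.93 in KO cells, and the highest midbrain point in each panel is Wnt1, whose fitted value depends on the prior count because its untreated libraries are all at 0.

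Markers of other cell types moved with the RA comparisons. The summed level of 8 mesenchymal markers was 45.3 to 98.8 CPM in WT NO, 114 to 279 CPM in WT RA, 46.9 to 47.3 CPM in KO NO and 217 to 1059 CPM in KO RA, with the highest sum in KO RA replicate 3. Of these 8, 6 were called higher in KO RA than in KO NO (5.48% of all genes called) and 3 in WT RA than in WT NO (0.406%). The summed level of 8 neural progenitor markers was 365 to 391 CPM in WT NO, 452 to 652 CPM in WT RA, 247 to 305 CPM in KO NO and 726 to 957 CPM in KO RA, with 5 of 8 called higher in KO RA than in KO NO. That of 8 neuronal markers was 83.3 to 118 CPM in WT NO, 156 to 177 CPM in WT RA, 74.2 to 93.8 CPM in KO NO and 177 to 215 CPM in KO RA, with 3 of 8 called higher in the same comparison. Vim was the largest part of the progenitor sum. Its means were 204, 331, 130 and 542 CPM in WT NO, WT RA, KO NO and KO RA. Some markers went the other way. Mean Sox3 was lower after RA in WT cells (43.3 and 31.2 CPM) and KO cells (32.6 and 28.2 CPM). So was mean Rbfox3, a neuronal marker (2.37 and 0.353 CPM, and 1.62 and 0.445 CPM). In WT cells the means of Nes and Elavl3 were lower too. The summed level of 9 pluripotency markers was 1955 to 3311 CPM in WT NO, 2840 to 4120 CPM in WT RA, 2261 to 2691 CPM in KO NO and 1589 to 2393 CPM in KO RA, with none of 8 tested called in any comparison. Pou5f1 was the largest part of that sum. In KO cells mean Pou5f1 was lower after RA (1511 and 985 CPM), whereas mean Nanog was higher (73.8 and 106 CPM). Between genotypes, Pax6, which marks neural progenitors of the forebrain and hindbrain, was called lower in KO NO (0.791 to 2.01 CPM) than in WT NO (4.12 to 9.30 CPM), and lower in KO RA (1.84 to 4.33 CPM) than in WT RA (11.8 to 14.9 CPM). Fabp7 was called higher in KO RA (15.6 to 155 CPM) than in WT RA (2.04 to 7.12 CPM). Gata4 was the 1 endoderm marker of 4 tested that was called (lower in KO NO), and none of 4 epithelial markers was called in any comparison. The part of these cell states in the levels of the regional genes was not tested.

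The genes whose levels were most like those of each member over the 12 libraries were found by Pearson's correlation of log2(CPM + 2), as a description of libraries that share groups and scaling. Otx2 was most like Nf2 (r = 0.992, Spearman's rho = 0.923), Mcm2 (0.991, 0.951) and Pdzd4 (0.983, 0.916). Its r with Nf2 was 0.939 without KO RA replicate 3. Emx2 was most like Notch1 (r = 0.938, rho = 0.902), Parp8 (0.926, 0.909) and 2510009E07Rik (0.925, 0.895). For En1 they were Gm47029 (r = 0.934, rho = 0.762), Nbl1 (0.923, 0.839) and Dcbld1 (0.920, 0.636). Gm47029 had a mean of 0.129 CPM, near the floor. For En2 they were Cgnl1 (0.942, 0.825), Ptms (0.914, 0.762) and Spock1 (0.912, 0.825). For Lmx1b they were Ptprm (0.936, 0.748), Plk3 (0.931, 0.720) and Pax3 (0.931, 0.685). For Gbx2 they were Fam167a (0.902, 0.825), Epha5 (0.880, 0.853) and Gm26881 (0.872, 0.914). The values for Otx1 (at most 0.871) and Dmbx1 (at most 0.806) rest on levels near the floor. Between members, the highest r was 0.683, for Emx2 with En1, and that of the paralogues En1 and En2 was 0.233. The lowest was −0.473, for Otx2 with Emx2. Pairs with Otx2 changed when KO RA replicate 3 was left out. Otx2 with Lmx1b went from −0.086 to −0.805, and Otx2 with Emx2 to −0.726, while Emx2 with En1 was then 0.728.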

How the data were processed

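Polyadenylated RNA was sequenced paired-end from 12 libraries, 3 per group. The authors processed the reads with nf-core/rnaseq (STAR and Salmon, GRCm39, Ensembl annotation) and deposited estimated counts scaled from TPM. Of 57010 genes, 27569 were at 0 in all libraries. These expected counts correct for gene length: among 3851 genes above 0 in 1 library, value and exonic length had a Spearman correlation of −0.685. They were rounded to whole numbers and tested in edgeR 4.0.16 (R 4.3.3) with TMM factors, the default expression filter (16502 genes), 1 coefficient per group, robust quasi-likelihood fits and Benjamini-Hochberg adjustment at 0.05 over all genes tested. Intervals are at 95%. The groups shared a common dispersion of 0.215. Samples were grouped by genotype and RA treatment as labelled.

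Alternatives used DESeq2 1.42.0, limma 3.58.1 (trend and voom with sample weights), other filters and scalings, only the groups compared, a replicate block, and each library left out in turn. Setting genes against Otx2 within a library, separation of groups without TMM factors, and the mitochondrial share, Kdm5d and Ddx3y, were added after the values were seen. The code was tested on simulated counts. The members and the lists of regional and marker genes were chosen with earlier results of these data known. From each list at most 3 higher and 3 lower genes were named, by adjusted p, among those called in groups that did not overlap. Fgf8 and Hoxb4 were added after their values were seen. Some items are not reported here. Positions and upstream windows came from GRCm39 with GENCODE annotation, which matched 56310 of the 57010 gene IDs. Overlaps with genes on the opposite strand were found in the same annotation.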

Additional observations from a re-analysis of the deposited data

How the results depend on the processing

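The number of the 8 genes called changed with the test. In KO NO against WT NO it was 0 by edgeR, 1 by DESeq2 on all libraries and on the groups compared, and 2 by limma-voom with sample weights, and it ran from 0 to 1 as single libraries were left out. In KO RA against WT RA it was 0 by edgeR, 1 by DESeq2 on all libraries and 2 by limma-voom, and ran from 0 to 1 as libraries were left out. In WT RA against WT NO it was 0 in every setting tried. In the interaction it was 0 by edgeR, 1 by DESeq2 and 4 by limma-voom, and ran from 0 to 1. In KO RA against KO NO it was 1 by edgeR, 3 by DESeq2 on all libraries and 6 by limma-voom, 0 by edgeR on the groups compared, 0 without a filter, 0 with at least 10 counts in every library (where Emx2 was not tested), and ran from 0 to 5 as libraries were left out. The highest of each of these ranges was without KO RA replicate 3, to which limma-voom gave a weight of 0.0530. The causes were not tested.

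The Emx2 difference between KO RA and KO NO kept its direction in all 20 alternatives in which it was tested. Its adjusted p ran from 0.000333 to 0.118 and was under 0.05 in 13. For Emx2 in KO NO against WT NO the adjusted p ran from 0.0117 to 0.361 (under 0.05 in 4 of 20), and for En1 in KO RA against WT RA from 0.000833 to 0.387 (3 of 21). The mean log2 TMM factor differed by −0.44 in KO RA against KO NO and by −0.25 in WT RA against WT NO. Leaving out the factors moves a difference of mean log2 CPM by that amount, and no fit was made without them.

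Replicate numbers did not pair the samples: over 18 pairs of libraries with the same number, the correlation of deviations from the group means ran from −0.167 to 0.0677, and 0 of 12 libraries correlated best with one of their own number. With the replicate block, 0 of the 8 genes were called in KO RA against KO NO (Emx2 log2 fold change 2.61, adjusted p = 0.0559), and En2 in KO RA against WT RA turned from 0.04 to −0.13.

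Signs that turned belonged to small or poorly measured differences. In KO NO against WT NO, Otx2 was at −0.065 on the log2 scale by limma-voom and ran from −0.10 to 0.11 as libraries were left out, Otx1 from −0.36 to 0.71 and En1 from −0.60 to 0.020. In KO RA against WT RA, En2 was at −0.054 by limma-trend and ran from −0.31 to 0.39, Lmx1b from −0.37 to 0.80 and Otx1 from −1.30 to 1.81. In WT RA against WT NO, limma-voom gave −0.39 for Otx1, −0.046 for En2 and −0.10 for Dmbx1, and leaving out libraries gave −1.04 to 0.39, −0.21 to 0.47 and −0.16 to 0.13. In KO RA against KO NO, Otx1 ran from −1.56 to 1.13 and Dmbx1 from −0.95 to 0.33. In the interaction, Lmx1b was at 0.70 by limma-voom and ran from −0.69 to 0.47, Otx1 from −1.61 to 1.503 and Dmbx1 from −0.98 to 0.30.

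The depth limits Otx1, Dmbx1, Gbx2 and Lmx1a most, which had more than 3 counts in 7, 9, 9 and 1 of the 12 libraries.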
